A study of Homo sapiens with 6 samples.

Results

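Heparan sulfate is a sulfated sugar chain carried by proteoglycans, and the genes described here encode the enzymes that build, sulfate, edit and cleave it and the core proteins that bear it. They were chosen by symbol alone: 37 of the 16779 genes listed in the deposited count tables matched, 25 enzyme genes and 12 core protein genes. RNA was sequenced from 6 libraries. All bear the label A549, the name of an established human lung adenocarcinoma (LUAD) line, and they comprise 3 of RN7SK knockout genotype and 3 of WT genotype, which their titles call control. RN7SK encodes 7SK, a small nuclear RNA that holds the elongation kinase P-TEFb inactive, and the comparison asks which mRNAs differ when it is deleted. The labels name no other treatment, do not say how the knockout was made or whether it is 1 clone, and do not say that replicates were separate cultures, so p-values measure the spread between these libraries, which may be technical.

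The labels could not be checked against the deleted gene, because the tables hold 0 rows for RN7SK. Other genes set the groups apart in a way the labels do not state. CDKN2A, a cell cycle inhibitor gene that A549 cells are known to have lost, had 0, 1 and 2 counts in the libraries labelled knockout and 963, 1005 and 923 counts in those labelled control, and its neighbour CDKN2B had 0, 1 and 0 counts in those labelled knockout and 216, 241 and 238 in those labelled control. MTAP, beside CDKN2A and fixed with both as a check of the labels, was lower in the knockout-labelled libraries but not near 0. It had 240, 201 and 233 counts in the knockout-labelled and 839, 897 and 835 in the control-labelled libraries. At CDKN2A and CDKN2B the control-labelled libraries thus go against their A549 label. For every difference below, deletion of RN7SK and another difference between the cells of the groups cannot be told apart. Total counts were 16018260 to 18488790 in the knockout-labelled and 18612303 to 19357144 in the control-labelled libraries. In the edgeR quasi-likelihood test with Benjamini-Hochberg adjustment, 85% of the 12929 genes tested passed a threshold of 0.05, 42% higher and 43% lower in the libraries labelled knockout. The CPM values of the groups did not overlap for 85.6% of the genes tested. Passing and groups that do not overlap were therefore the usual outcome, and sizes and per-library values carry the description below. The authors' FPKM tables imply a length for each gene (count over FPKM), and these lengths differ between the groups: 32.3% of 14582 genes, and 9 of the 28 heparan sulfate genes with a value in both groups, agreed within 1%. Counts do not use a length, but where the lengths move the fold change of a heparan sulfate gene strongly or turn its direction, that value is also given. For genes of the other pathway lists it is given only for B3GAT3, IDUA and DSE. Of the 9 markers fixed for A549 as lung epithelium, KRT8, KRT18 and CDH1 averaged 2965, 1605 and 158 CPM in the knockout-labelled and 1544, 1323 and 29.2 CPM in the control-labelled libraries. EPCAM, KRT19, SFTPB, SFTPC and NKX2-1 stayed below 1 CPM in both group means, so much of the lung epithelial list is near or at 0 in both groups. NKX2-1 had 25 counts in the knockout-labelled and 1 in the control-labelled libraries, and EPCAM had 23 and 30, all too few to test. NAPSA averaged 1.23 CPM in the knockout-labelled and 0.705 CPM in the control-labelled libraries (edgeR adjusted p = 0.0217), but did not pass with DESeq2 (adjusted p = 0.0698). Among 9 endothelial markers in the tables, the summed level was 4.19 to 4.92 CPM in the knockout-labelled and 162 to 175 CPM in the control-labelled libraries, mostly ESAM and ENG in the control-labelled libraries, where VWF and TIE1 had 0 counts. CDH5 and ROBO4, also on that list, fell 5.58-fold and 13.4-fold, with 15 and 7 counts in the knockout-labelled and 94 and 108 counts in the control-labelled libraries (edgeR adjusted p = 3.75e-07 and 2.04e-09). Both entered the test only through the control-labelled libraries. Other markers of that list went the other way at levels too low to test. KDR, PECAM1, TEK and VWF had 32, 7, 7 and 8 counts in the knockout-labelled and 5, 2, 1 and 0 in the control-labelled libraries. The 10 fibroblast markers summed to 116 to 124 CPM in the knockout-labelled and 73.8 to 78.0 CPM in the control-labelled libraries (COL1A2 and DCN at 0 in the control-labelled ones), and 7 haematopoietic markers to 58.6 to 63.2 CPM in the knockout-labelled and 37.5 to 41.5 CPM in the control-labelled libraries (CD3E at 0 in all, PTPRC at 0 in the control-labelled ones). The part of these markers in the results below was not tested.

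Heparan sulfate chains start on a serine of a core protein, where xylosyltransferases place the first sugar of a short linker. EXT enzymes then extend the chain with alternating glucuronic acid and N-acetylglucosamine. N-deacetylase/N-sulfotransferases, an epimerase and the O-sulfotransferases modify it in patches, and outside the cell sulfatases and heparanase trim the product. The patches bind growth factors, chemokines and matrix proteins, and on epithelial and cancer cells syndecans and glypicans present them at the surface.

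Of the 37 genes, 15 were higher and 11 lower in the libraries labelled knockout, 1 did not pass and 10 were too low to test. The share of all genes tested that passed was 85%, and the 26 of 27 tested genes are read against that share; passing alone says little about any of them. With a difference of at least 2-fold, 10 genes were higher and 6 lower, beside 19.5% and 14.1% of all genes tested (33.6% in either direction). Of the 27 tested, 22 reached the low-count filter in each group on their own, and these divided into 10 higher, 11 lower and 1 not passing, with a median log2 fold change of -0.12, beside a median of -0.007 over all genes tested. The other 5, XYLT1, HS6ST2, HS3ST1, HS3ST6 and GPC2, entered the test only through their level in the libraries labelled knockout; all 5 are among the 10 higher by at least 2-fold, and without them that count was 5 higher and 6 lower. By limma on log2(FPKM + 0.1), a scale into which gene lengths enter, 17 genes were higher and 8 lower. Every tested gene rose in 3 roles, chain initiation (2 genes), 6-O-sulfation (2) and 3-O-sulfation (3), but 4 of these 7 genes are among the 5 that entered through the knockout-labelled libraries. The other roles were divided or fell, and the direction of NDST1 and GLCE, counted as lower here, turns when the recovered lengths enter. In these bulk libraries fewer cells that express a gene and less RNA per cell cannot be told apart.

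**Figure D1:**
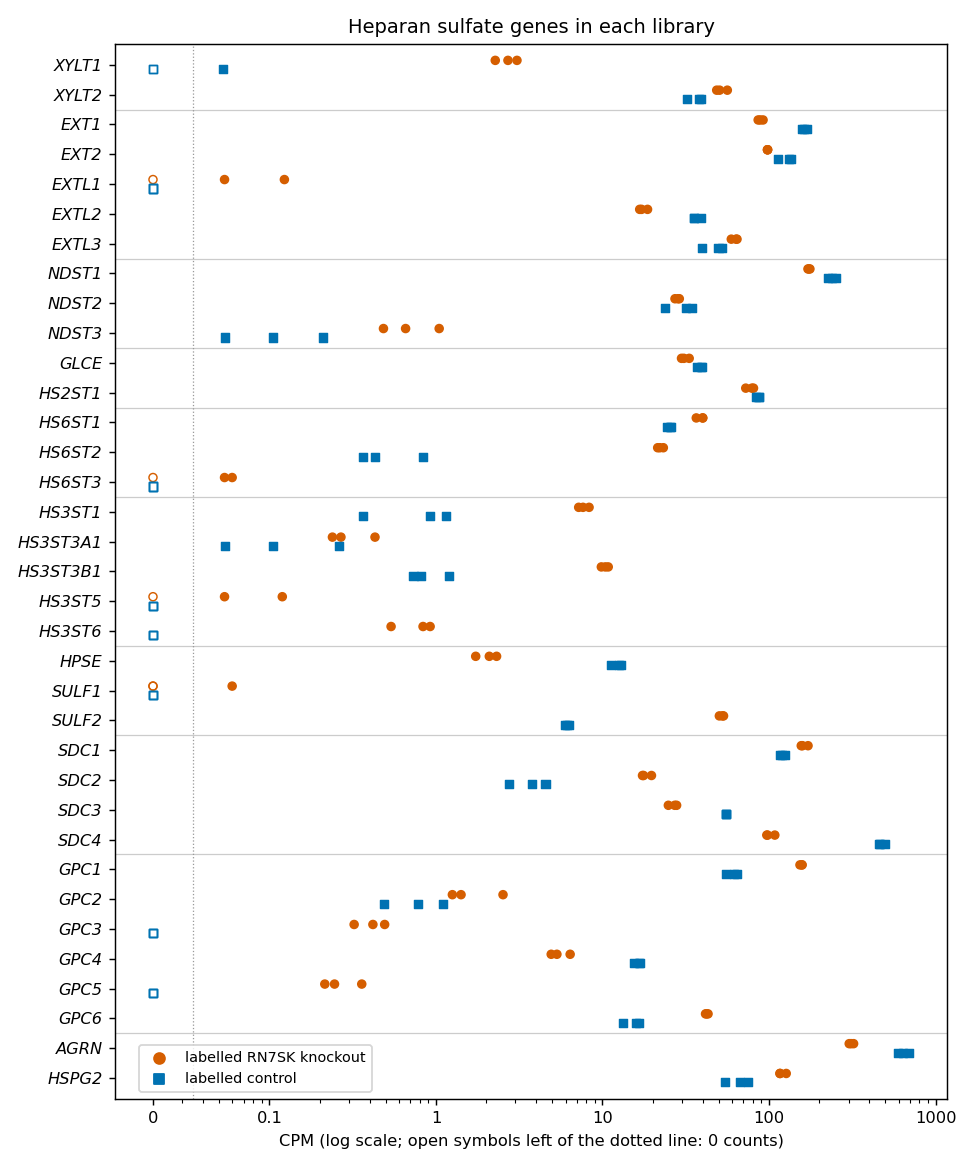
Read count scaled to library size (CPM, log scale) of the 35 heparan sulfate genes with any count, one point per library, grouped by role; circles are the 3 libraries labelled RN7SK knockout, squares the 3 labelled control, and open symbols mark 0 counts. SDC4 sits at 97.0 to 108 CPM in the knockout-labelled and 457 to 499 CPM in the control-labelled libraries, and HS6ST2 at 21.5 to 23.2 CPM in the knockout-labelled and 0.366 to 0.836 CPM in the control-labelled ones.

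The promoters of the 3 genes that rose most and the 3 that fell most, by counts alone and among those reaching 1 CPM in a group, are shown to let their sequence be compared beside their opposite changes. Each is the 250 bases before the RefSeq start (GRCh38.p14, read 5′ to 3′ on the gene's strand), and for HPSE, which has 3 listed starts, the most upstream. Capitals mark matches on either strand to GGGCGG (the GC box), TATAAA (the TATA box), CCAAT (the CCAAT box), CACGTG (an E-box) or TGANTCA (the AP-1 element). No letters of one motif hold another, and matches of different motifs did not overlap in these windows.
XYLT1, chr16:17470961-17471210, minus strand: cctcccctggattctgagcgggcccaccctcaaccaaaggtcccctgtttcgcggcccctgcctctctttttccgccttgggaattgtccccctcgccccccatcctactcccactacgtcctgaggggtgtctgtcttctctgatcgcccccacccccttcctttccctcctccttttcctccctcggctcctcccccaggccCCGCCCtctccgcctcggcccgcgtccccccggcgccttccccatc
HS6ST2, chrX:132961371-132961620, minus strand: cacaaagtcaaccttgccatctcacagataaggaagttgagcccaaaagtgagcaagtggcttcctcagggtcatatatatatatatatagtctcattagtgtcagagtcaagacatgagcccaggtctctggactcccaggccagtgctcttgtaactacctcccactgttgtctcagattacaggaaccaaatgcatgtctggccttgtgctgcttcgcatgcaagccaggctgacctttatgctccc
HS3ST3B1, chr17:14300831-14301080, plus strand: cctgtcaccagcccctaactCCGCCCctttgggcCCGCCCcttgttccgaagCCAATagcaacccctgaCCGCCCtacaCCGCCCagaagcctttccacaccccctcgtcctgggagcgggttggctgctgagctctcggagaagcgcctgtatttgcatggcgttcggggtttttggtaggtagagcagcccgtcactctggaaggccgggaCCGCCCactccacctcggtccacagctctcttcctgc
HPSE, chr4:83335154-83335403, minus strand: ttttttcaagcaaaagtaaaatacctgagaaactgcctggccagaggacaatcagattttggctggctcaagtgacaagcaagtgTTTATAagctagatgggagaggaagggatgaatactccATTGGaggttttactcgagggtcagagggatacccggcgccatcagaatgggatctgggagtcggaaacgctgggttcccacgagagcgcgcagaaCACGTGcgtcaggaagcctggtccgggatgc
SDC4, chr20:45348425-45348674, minus strand: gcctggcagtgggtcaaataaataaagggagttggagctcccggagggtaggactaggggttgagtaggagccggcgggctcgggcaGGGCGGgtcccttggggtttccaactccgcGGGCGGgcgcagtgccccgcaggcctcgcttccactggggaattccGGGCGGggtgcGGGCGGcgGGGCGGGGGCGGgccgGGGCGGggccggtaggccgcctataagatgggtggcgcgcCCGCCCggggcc
GPC4, chrX:133415490-133415739, minus strand: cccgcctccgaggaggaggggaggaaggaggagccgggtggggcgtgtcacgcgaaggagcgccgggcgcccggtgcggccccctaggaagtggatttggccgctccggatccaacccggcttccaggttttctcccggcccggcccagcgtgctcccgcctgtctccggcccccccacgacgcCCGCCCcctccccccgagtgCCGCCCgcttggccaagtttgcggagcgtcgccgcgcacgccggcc
SDC4 held 8 GC boxes, HS3ST3B1 5, GPC4 2 and XYLT1 1, a motif present in 42.6% of the 35116 promoters of the table over the same window. The HPSE promoter had 1 TATA box (in 10.7% of all promoters), 1 CCAAT box (32.0%) and 1 E-box (6.34%), and HS3ST3B1 had 1 CCAAT box. The AP-1 element (6.57%) matched none of these windows. HS6ST2 held none of the 5 motifs and had 48.0% GC with 1 CpG, against 76.0% GC and 32 CpG at GPC4, its neighbour on the X chromosome; the median over all promoters was 58% GC. Within this set neither the genes that rose nor those that fell shared 1 motif throughout, and a match is a description of letters only. With the length offset EXT1, at -2.17, fell more than GPC4, at -1.96 (log2).

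Both xylosyltransferase genes, whose products place the first sugar on the core protein, were higher in the libraries labelled knockout. XYLT1 entered the test only through its level in those libraries. XYLT1 (chromosome 16, 17101769 to 17470960) had 57, 38 and 44 counts in the libraries labelled knockout, against 0, 1 and 0 in those labelled control. It was near the limit of detection in the control-labelled libraries and present at 2.68 ± 0.398 CPM (mean ± SD, n = 3) in the others. The ratio of summed counts, scaled to library size, was 153 (95% exact counting interval 27.0 to 6081), and the 1 control count makes its size uncertain (edgeR adjusted p = 4.50e-13). Without control replicate 2, which holds that count, the fitted log2 fold change was 8.59 instead of 6.78. XYLT2, the widely expressed paralog, averaged 51.7 ± 3.97 CPM in the knockout-labelled and 36.3 ± 3.73 CPM in the control-labelled libraries (n = 3 each), a rise of 0.51 ± 0.071 on the log2 scale (fit ± SE, edgeR adjusted p = 1.18e-07).

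Of the chain-building EXT and EXTL genes, EXT1, EXT2 and EXTL2 fell and EXTL3 rose. EXT1 and EXT2 encode the partners of the heparan sulfate polymerase, and loss of either causes hereditary multiple exostoses. EXT1 averaged 88.9 ± 3.03 CPM in the knockout-labelled and 163 ± 4.80 CPM in the control-labelled libraries, and EXT2 averaged 97.9 ± 0.133 CPM in the knockout-labelled and 127 ± 11.7 CPM in the control-labelled libraries (n = 3 each). The groups of both genes did not overlap, and they fell by 0.88 ± 0.048 and 0.37 ± 0.055 on the log2 scale (edgeR adjusted p = 6.65e-18 and 3.10e-07). The size for EXT1 rests on the gene length: its recovered length was 8243 bases in the knockout-labelled and 3363 bases in the control-labelled tables, and with the lengths as an offset its log2 fold change was -2.17 (edgeR adjusted p = 4.33e-29). EXTL2, which can cap the linker and stop the chain, had 16.7, 18.6 and 17.2 CPM in the 3 libraries labelled knockout, against 35.4, 39.0 and 35.6 CPM in the 3 labelled control. All 3 libraries labelled knockout lay below all 3 labelled control, a 2.09-fold fall (log2 fold change -1.07 ± 0.075, edgeR adjusted p = 6.57e-15). EXTL3, which adds the first N-acetylglucosamine and so commits the linker to heparan sulfate, went the other way, averaging 62.3 ± 2.61 CPM in the knockout-labelled and 47.2 ± 6.82 CPM in the control-labelled libraries (log2 fold change 0.40 ± 0.079, edgeR adjusted p = 0.000102). EXTL1 had 1, 0 and 2 counts in the libraries labelled knockout, against 0, 0 and 0 in those labelled control and was not tested.

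The tested N-sulfation, epimerisation and 2-O-sulfation genes, NDST1, NDST2, GLCE and HS2ST1, differed by less than 2-fold, and for NDST1 and GLCE the direction depended on the gene lengths. NDST1, the main N-deacetylase/N-sulfotransferase of most tissues, averaged 174 ± 2.35 CPM in the knockout-labelled and 238 ± 11.9 CPM in the control-labelled libraries (log2 fold change -0.46 ± 0.045, edgeR adjusted p = 3.13e-11). Its recovered length was 8212 bases in the knockout-labelled and 17187 bases in the control-labelled tables, and with the length offset the log2 fold change turned to 0.61 (edgeR adjusted p = 2.34e-14). GLCE, the epimerase that turns glucuronic into iduronic acid, averaged 31.3 ± 1.71 CPM in the knockout-labelled and 38.4 ± 1.32 CPM in the control-labelled libraries and fell by 0.30 ± 0.066 (edgeR adjusted p = 0.000122), but had a log2 fold change of 0.28 with its lengths of 8151 bases in the knockout-labelled and 12141 bases in the control-labelled tables. No direction is drawn for either gene. NDST2, known for heparin synthesis in mast cells, had 28.4, 28.9 and 27.2 CPM in the 3 libraries labelled knockout, against 31.7, 23.9 and 34.3 CPM in the 3 labelled control. Its groups overlapped and it did not pass (log2 fold change -0.087 ± 0.10, edgeR adjusted p = 0.431), with a call as lower (adjusted p = 0.00204) only without control replicate 2, the lowest of its group. Exons of NDST2 also share 3857 bases with the protein-coding gene AC022400.6 on the same strand, which has no row in the tables. HS2ST1, which sulfates the 2-O position of iduronic acid, averaged 77.4 ± 4.31 CPM in the knockout-labelled and 85.6 ± 2.33 CPM in the control-labelled libraries, a log2 fold change of -0.15 ± 0.054 (edgeR adjusted p = 0.0125), and no longer passed without knockout replicate 2 (adjusted p = 0.123) or under upper quartile scaling (adjusted p = 0.31); its exons share 720 bases with AC093155.3, likewise on the same strand and with no row. NDST3 had 9, 11 and 17 counts in the libraries labelled knockout, against 1, 4 and 2 in those labelled control, too few to be tested, and NDST4 had 0 counts in all 6 libraries.

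Both 6-O-sulfotransferase genes that could be tested rose, HS6ST2 by far the most, and HS6ST3 was too low to test. HS6ST2 entered the test only through its level in the knockout-labelled libraries. Sulfate at the 6-O position of glucosamine takes part in joining fibroblast growth factors to their receptors. HS6ST2 (chromosome X, 132626015 to 132961370) had 22.1, 21.5 and 23.2 CPM in the 3 libraries labelled knockout, against 0.432, 0.366 and 0.836 CPM in the 3 labelled control. The lowest knockout-labelled library stood far above the highest control-labelled one, and the gene rose 40.2-fold (log2 fold change 5.33 ± 0.17, edgeR adjusted p = 3.02e-24), on 1147 counts in the knockout-labelled and 31 in the control-labelled group. HS6ST1, the widespread form, averaged 38.8 ± 1.97 CPM in the knockout-labelled and 25.2 ± 0.663 CPM in the control-labelled libraries (n = 3 each), a log2 fold change of 0.62 ± 0.068 (edgeR adjusted p = 3.95e-10). HS6ST3 had 1, 1 and 0 counts in the libraries labelled knockout, against 0, 0 and 0 in those labelled control.

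All 3 testable 3-O-sulfotransferase genes rose, and all were low in the control-labelled libraries. HS3ST1 and HS3ST6 entered the test only through their level in the knockout-labelled libraries, so their shared direction was favoured by the filter. 3-O-sulfation is the rarest modification of the chain; HS3ST1 makes the antithrombin-binding site, and HS3ST3A1 and HS3ST3B1 make the site bound by herpes simplex virus glycoprotein D. HS3ST3B1 (chromosome 17, 14301081 to 14349404) had 9.84, 10.4 and 10.8 CPM in the 3 libraries labelled knockout, against 0.810, 0.733 and 1.20 CPM in the 3 labelled control. The groups were far apart, with an 11.2-fold rise (log2 fold change 3.49 ± 0.19, edgeR adjusted p = 3.80e-18). HS3ST3A1, whose sulfotransferase domain is nearly identical, had 5, 4 and 7 counts in the libraries labelled knockout, against 1, 5 and 2 in those labelled control. It was too low to test and its groups overlapped, and reads of the shared domain may have been divided between both genes by the counting. HS3ST1 had 7.64, 8.31 and 7.20 CPM in the 3 libraries labelled knockout, against 0.918, 0.366 and 1.15 CPM in the 3 labelled control, a 9.44-fold rise (log2 fold change 3.24 ± 0.22, edgeR adjusted p = 5.12e-15). HS3ST6 had 10, 14 and 15 counts in the libraries labelled knockout, against 0, 0 and 0 in those labelled control, at least 14.3-fold higher when the control-labelled group is set at a floor of 3 counts in all (edgeR adjusted p = 3.63e-07). HS3ST5 had at most 2 counts in a library and HS3ST2 had 0 throughout; HS3ST4 had 0 rows in the tables and is not analysed here.

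The genes that edit the finished chain moved in opposite directions. SULF2 (chromosome 20, 47657406 to 47786627), an extracellular sulfatase that removes 6-O-sulfate, had 52.5, 53.3 and 50.3 CPM in the 3 libraries labelled knockout, against 6.10, 5.97 and 6.33 CPM in the 3 labelled control. The 3 libraries of each group lay close together and far from the other group, with an 8.48-fold rise (log2 fold change 3.08 ± 0.082, edgeR adjusted p = 6.90e-27); with recovered lengths of 4866 bases in the knockout-labelled and 7692 bases in the control-labelled tables the log2 fold change was 3.74. Its relative SULF1 was all but absent, with 1 count in 1 knockout-labelled library and 0 in the rest. HPSE (chromosome 4, 83292461 to 83335153), heparanase, which cuts the chains in the matrix and in lysosomes, had 2.31, 1.73 and 2.09 CPM in the 3 libraries labelled knockout, against 12.9, 12.5 and 11.2 CPM in the 3 labelled control. It fell 5.93-fold (log2 fold change -2.57 ± 0.15, edgeR adjusted p = 5.25e-17), with no overlap between the groups.

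Among the syndecans, transmembrane proteoglycans that signal through a short conserved tail, SDC4 and SDC3 fell and SDC2 and SDC1 rose. SDC4 (chromosome 20, 45325288 to 45348424), the syndecan of focal adhesions, had 108, 97.0 and 97.9 CPM in the 3 libraries labelled knockout, against 462, 499 and 457 CPM in the 3 labelled control. It fell 4.67-fold (log2 fold change -2.22 ± 0.049, edgeR adjusted p = 1.06e-28), the smallest p among the heparan sulfate genes. SDC3, best known from neurons, had 27.2, 24.9 and 27.9 CPM in the 3 libraries labelled knockout, against 54.9, 54.9 and 55.4 CPM in the 3 labelled control, a 2.07-fold fall (log2 fold change -1.05 ± 0.064, edgeR adjusted p = 1.29e-16). SDC2 (chromosome 8, 96493813 to 96611790), which acts in angiogenesis and matrix assembly, had 17.6, 17.4 and 19.7 CPM in the 3 libraries labelled knockout, against 2.75, 3.77 and 4.55 CPM in the 3 labelled control. The groups lay well apart, and it rose 4.92-fold (log2 fold change 2.30 ± 0.13, edgeR adjusted p = 3.05e-17). SDC1, the main epithelial syndecan, averaged 162 ± 8.19 CPM in the knockout-labelled and 120.3 ± 3.71 CPM in the control-labelled libraries (n = 3 each), a log2 fold change of 0.43 ± 0.048 (edgeR adjusted p = 6.03e-10). With the recovered lengths as an offset the log2 fold changes were -2.22 for SDC4, -1.08 for SDC3, 2.31 for SDC2 and 0.43 for SDC1, close to those from counts alone.

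Per length, the syndecan make-up was shared between SDC1 and SDC4 in the libraries labelled knockout and dominated by SDC4 in those labelled control. In the authors' FPKM, SDC4 held 42.2% ± 2.26 in the knockout-labelled and 80.7% ± 0.958 in the control-labelled libraries of the summed syndecan FPKM (mean ± SD, n = 3 each), and SDC1 held 47.7% ± 2.41 in the knockout-labelled and 14.5% ± 0.743 in the control-labelled libraries. SDC2 accounted for 5.08% ± 0.426 in the knockout-labelled and 0.417% ± 0.103 in the control-labelled libraries. The sum itself was 91.1 ± 0.891 FPKM in the knockout-labelled and 218 ± 8.21 FPKM in the control-labelled libraries. Shares of different genes can be compared on this scale because FPKM is scaled to length, and no test was run on them. They say nothing of protein or chain amounts.

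Of the 6 glypicans, which are tied to the membrane by a lipid anchor, 4 could be tested: GPC1, GPC6 and GPC2 were higher, GPC2 only with knockout replicate 1 included, and GPC4 was lower. GPC1, raised in several carcinomas, had 153, 158 and 158 CPM in the 3 libraries labelled knockout, against 61.3, 55.2 and 64.3 CPM in the 3 labelled control, a 2.59-fold rise (log2 fold change 1.37 ± 0.053, edgeR adjusted p = 3.81e-22). GPC6, close in sequence to GPC4, had 41.6, 43.0 and 42.2 CPM in the 3 libraries labelled knockout, against 15.9, 13.2 and 16.5 CPM in the 3 labelled control. It rose 2.78-fold (log2 fold change 1.48 ± 0.078, edgeR adjusted p = 2.22e-18), and neither gene's groups overlapped. GPC4 (chromosome X, 133300103 to 133415489) had 5.32, 6.39 and 4.92 CPM in the 3 libraries labelled knockout, against 16.5, 15.4 and 16.7 CPM in the 3 labelled control, a 2.92-fold fall (log2 fold change -1.55 ± 0.12, edgeR adjusted p = 3.41e-14). GPC2, a developmental glypican, had 47, 21 and 23 counts in the libraries labelled knockout, against 9, 21 and 15 in those labelled control. GPC2 entered the test only through its level in the knockout-labelled libraries. Its log2 fold change of 1.14 ± 0.33 passed (edgeR adjusted p = 0.00208) but rested on knockout replicate 1, without which it was 0.75 (adjusted p = 0.0715). GPC3, a marker of liver cancer, and GPC5 were seen only in the libraries labelled knockout, with 6, 7 and 8 and 4, 6 and 4 counts against 0 in every control-labelled library. They were at least 7.70-fold and 5.13-fold higher over a floor of 3 counts in the group, and were too low to be tested.

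GPC1 was the main glypican per length in both groups, with 89.6% ± 0.555 in the knockout-labelled and 73.2% ± 0.833 in the control-labelled libraries of the summed glypican FPKM. GPC4 held 2.57% ± 0.337 in the knockout-labelled and 21.1% ± 0.543 in the control-labelled libraries, and GPC6 5.80% ± 0.0431 in the knockout-labelled and 4.21% ± 0.232 in the control-labelled libraries. The size of the GPC4 shares depends on the lengths used. It held 3.38% in the knockout-labelled libraries with the control group's lengths, and 16.8% in the control-labelled libraries with the knockout group's lengths. The summed glypican FPKM was 43.2 ± 0.566 FPKM in the knockout-labelled and 20.2 ± 1.33 FPKM in the control-labelled libraries, a change opposite in sign to that of the syndecans. Among the 6-O-sulfotransferases, HS6ST1 led in both groups, and HS6ST2 held 25.6% ± 1.15 in the knockout-labelled and 1.15% ± 0.503 in the control-labelled libraries. HS3ST3B1 was the leading 3-O-sulfotransferase in both groups, with 63.8% ± 1.49 in the knockout-labelled and 63.5% ± 4.10 in the control-labelled libraries, while the summed 3-O-sulfotransferase FPKM was 2.36 ± 0.128 FPKM in the knockout-labelled and 0.206 ± 0.0594 FPKM in the control-labelled libraries. Within the EXT and EXTL genes, EXT2 held 49.4% ± 0.383 in the knockout-labelled and 32.3% ± 1.50 in the control-labelled libraries, and EXT1 held 21.0% ± 0.572 in the knockout-labelled and 49.6% ± 1.16 in the control-labelled libraries, so that EXT2 led in the knockout-labelled and EXT1 in the control-labelled group. With the control group's lengths used for all libraries, EXT1 led in both groups, with 40.3% in the knockout-labelled and 49.6% in the control-labelled libraries, and with the knockout group's lengths EXT2 led in both groups, with 49.4% against 21.0% for EXT1 in the knockout-labelled and 45.8% against 27.7% in the control-labelled libraries. The order of EXT1 and EXT2 in either group therefore depends on the lengths used.

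**Figure D2:**
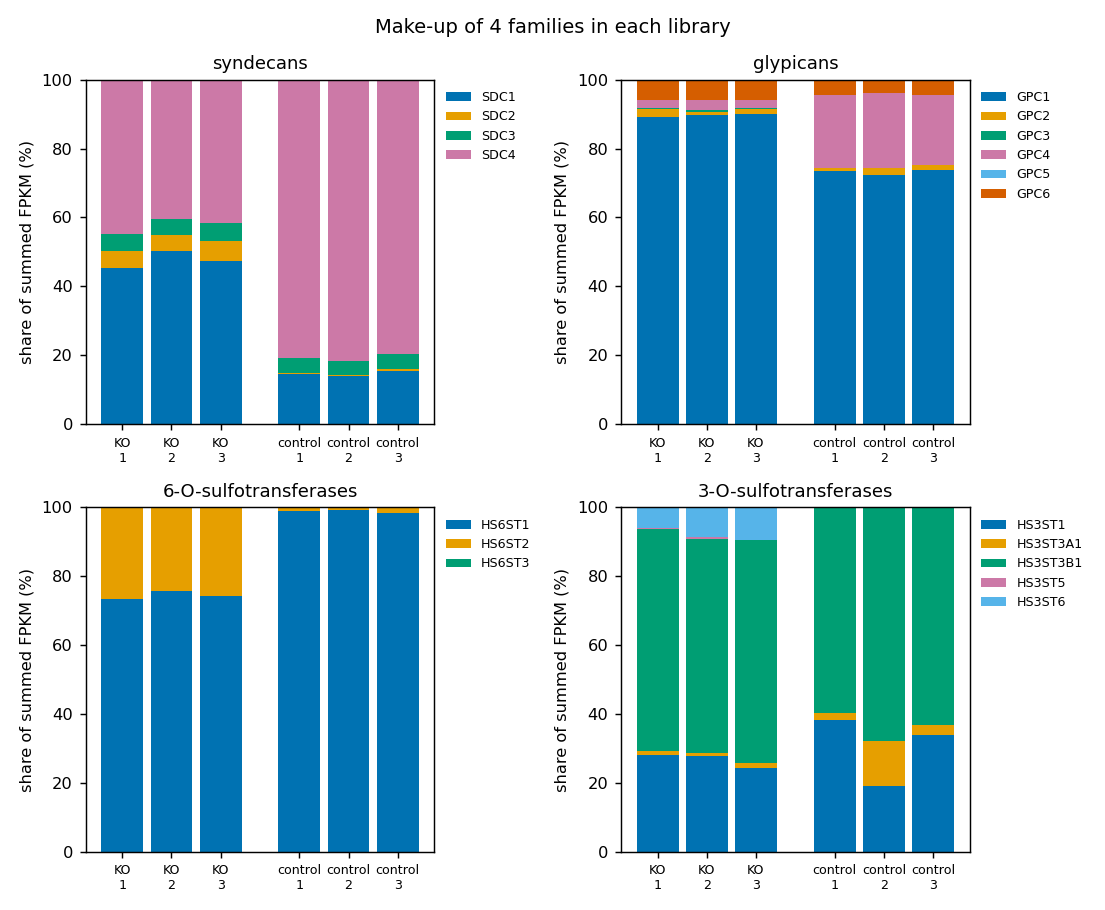
Share of each family's summed FPKM (percent, from 0 to 100) held by each gene, one stacked bar per library, the 3 libraries labelled knockout (KO) on the left and the 3 labelled control on the right. SDC4 takes 42.2% on average in the knockout-labelled and 80.7% in the control-labelled libraries, and HS6ST2 takes 25.6% in the knockout-labelled and 1.15% in the control-labelled ones.

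The secreted core proteins of basement membranes moved apart. AGRN, agrin, which organises the neuromuscular junction and also lies in epithelial basement membranes, was the most abundant of the 37 genes by read count, at 303, 322 and 311 CPM in the 3 libraries labelled knockout, against 638, 593 and 696 CPM in the 3 labelled control. It fell 2.06-fold (log2 fold change -1.04 ± 0.048, edgeR adjusted p = 8.74e-19). Exons of AGRN share 402 bases with AL645608.5 on the same strand, which is not among the genes listed. HSPG2, perlecan, had 116, 127 and 116 CPM in the 3 libraries labelled knockout, against 66.8, 54.2 and 74.9 CPM in the 3 labelled control, a rise of 0.88 ± 0.11 on the log2 scale (edgeR adjusted p = 9.64e-05). Its control-labelled libraries spread more than its knockout-labelled ones, and 2121 bases of its exons overlap LDLRAD2 on the opposite strand in GENCODE 29, so its reads cannot be told from that gene's if the counting ignored strand, which is not stated. Exons of XYLT1, XYLT2, EXTL2, EXTL3, NDST1, SULF2 and GPC6 overlap noncoding or unclassified genes on the opposite strand by 68 to 476 bases, and those of SULF2 overlap NCOA3 by 96, with the same uncertainty.

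**Figure D3:**
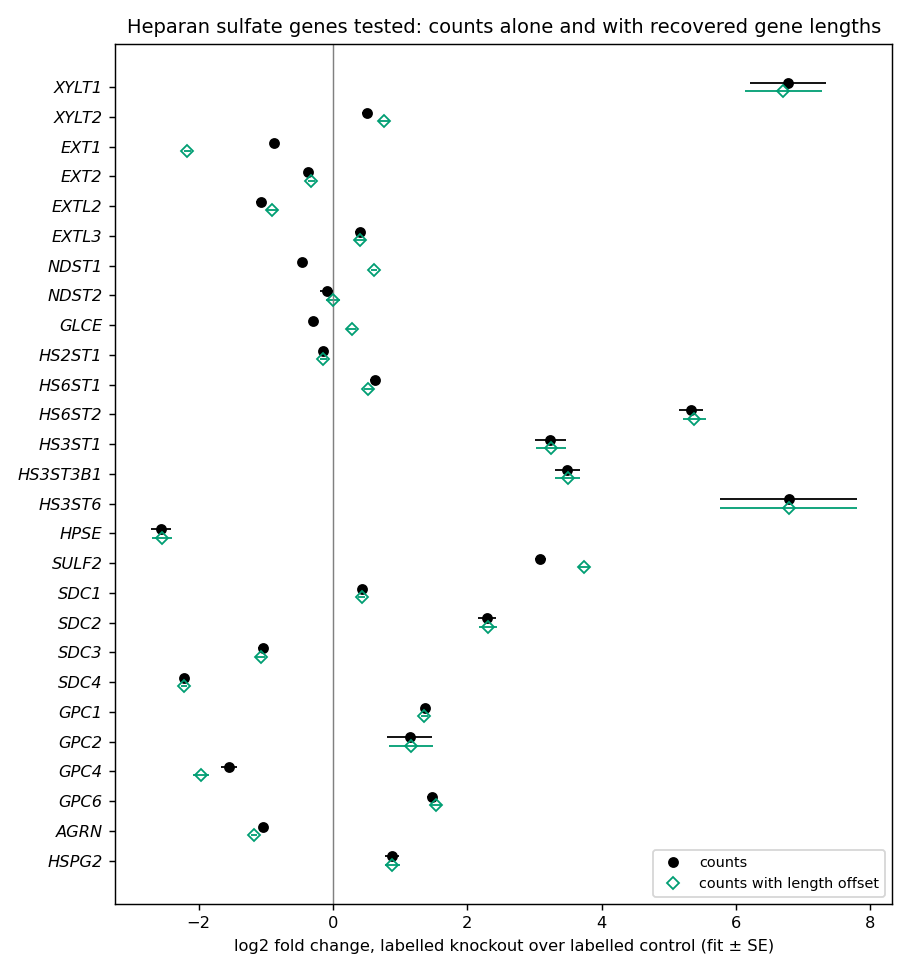
Log2 fold change of the 27 heparan sulfate genes tested, labelled knockout over labelled control, with the SE of the edgeR fit as bars; filled circles use counts alone and open diamonds add the recovered gene lengths as an offset. NDST1 lies at -0.46 and 0.61 and GLCE at -0.30 and 0.28, on opposite sides of 0; the fitted sizes of XYLT1 and HS3ST6 rest on 1 and 0 control counts.

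Other genes of the pathway were read from 5 lists, 76 genes in the tables and 68 tested, of which 40 were higher, 24 lower and 4 did not pass, beside 85% of all genes passing. 20 were higher and 10 lower by at least 2-fold, beside 19.5% and 14.1% of all genes. Of the 68, 63 reached the low-count filter in each group on their own. Another 3 reached it only in the knockout-labelled libraries and are among the 20 higher. The other 2, MDK and BGN, reached it only in the control-labelled libraries and are among the 10 lower. Each list is to be read against 42% higher, 43% lower and a median log2 fold change of -0.007 over all genes tested. Up to 4 genes with the smallest p are named from each, and any other gene was named after its values were seen. Of 15 genes for the linker and for sugar and sulfate supply, 8 rose, 5 fell and 2 did not pass (median log2 fold change 0.29). The enzyme genes for UDP-glucuronic acid, a sugar donor of the chain, rose: UGDH by 1.46 ± 0.044 and UGP2 by 0.83 ± 0.052 (log2). B3GAT3, which completes the linker, rose by 0.96 ± 0.058 (log2). For B3GAT3 the length offset gave a larger rise, 1.41 (log2). SLC26A2, the sulfate transporter mutated in diastrophic dysplasia, fell by 1.48 ± 0.053 (log2), averaging 65.3 ± 1.35 CPM in the knockout-labelled and 182 ± 13.8 CPM in the control-labelled libraries (edgeR adjusted p between 2.64e-16 and 2.80e-25 for these 4 genes).

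Lysosomal genes that take heparan sulfate apart were mostly higher: 7 of 9 rose and 2 fell (median log2 fold change 0.90, beside -0.007 over all genes). NAGLU, whose loss causes Sanfilippo syndrome type B, averaged 169 ± 2.90 CPM in the knockout-labelled and 41.3 ± 2.70 CPM in the control-labelled libraries, a 4.09-fold rise (edgeR adjusted p = 5.70e-27). HGSNAT, the acetyltransferase of the same route, rose 2.85-fold, IDUA, the iduronidase, 3.29-fold, and IDS, the iduronate sulfatase, 1.86-fold (edgeR adjusted p = 1.01e-22, 2.04e-18 and 4.01e-19). With the recovered lengths as an offset the log2 fold change of IDUA was 2.06 instead of 1.72. GUSB, the beta-glucuronidase, named after its values were seen, was among those that fell, with a log2 fold change of -0.67 ± 0.054 (edgeR adjusted p = 2.40e-13).

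Chondroitin and dermatan sulfate chains grow on the same linker, and their genes were divided, with 8 higher, 7 lower and 1 not passing of 16 (median log2 fold change 0.088). Both dermatan sulfate epimerase genes fell: DSE averaged 14.6 ± 1.77 CPM in the knockout-labelled and 86.5 ± 2.40 CPM in the control-labelled libraries, and DSEL 6.26 ± 0.643 CPM in the knockout-labelled and 48.9 ± 3.83 CPM in the control-labelled libraries. These are 5.94-fold and 7.78-fold falls (edgeR adjusted p = 2.13e-26 and 4.23e-25). With the recovered lengths as an offset the log2 fold change of DSE was -1.99 instead of -2.57. CSGALNACT1, which starts a chondroitin chain on the linker, rose 3.27-fold, and CHST7, a chondroitin 6-O-sulfotransferase, fell 2.70-fold (edgeR adjusted p = 5.59e-23 and 5.76e-18). Of 12 other core protein genes tested, 5 rose, 6 fell and 1 did not pass (median log2 fold change -0.26). NRP1, neuropilin 1, which can carry a glycosaminoglycan chain and binds VEGF, rose 4.58-fold to 401 ± 3.92 CPM in the libraries labelled knockout, against 87.4 ± 3.20 CPM in those labelled control. The death receptor gene TNFRSF21 rose by 1.31 ± 0.058 (log2), SRGN, the intracellular proteoglycan serglycin, rose by 0.95 ± 0.064, and APLP2 fell by 0.60 ± 0.041 (edgeR adjusted p between 2.80e-15 and 4.32e-30 for these 4).

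Among the listed growth factors, receptors and partners of heparan sulfate or of its core proteins, 12 of 16 tested genes rose and 4 fell, beside 42% and 43% of all genes tested (median log2 fold change 0.84, beside -0.007). The largest differences were falls. MDK, the heparin-binding growth factor midkine, averaged 0.613 ± 0.172 CPM in the knockout-labelled and 73.5 ± 6.51 CPM in the control-labelled libraries, a 117-fold fall (edgeR adjusted p = 1.18e-30). MDK entered the test only through its level in the control-labelled libraries. HBEGF, an EGF receptor ligand, fell 24.0-fold, and MMP14, a membrane protease that can shed syndecans, fell 20.7-fold (edgeR adjusted p = 3.29e-28 and 7.35e-30). SDCBP, syntenin, which binds the syndecan tail, rose 2.55-fold, averaging 595 ± 15.8 CPM in the knockout-labelled and 233 ± 14.6 CPM in the control-labelled libraries (edgeR adjusted p = 4.68e-24). The FGF receptor genes, like FGF2 named after their values were seen, were higher in all 4 cases: FGFR1 rose 3.30-fold, FGFR2 6.84-fold, FGFR3 5.08-fold and FGFR4 2.24-fold (edgeR adjusted p between 2.99e-13 and 2.70e-18). Of the FGF ligands listed, FGF2 passed with a log2 fold change of 0.23 ± 0.053 (edgeR adjusted p = 0.00018), and FGF1, FGF7, FGF9 and FGF18 were too low to test.

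**Figure D4:**
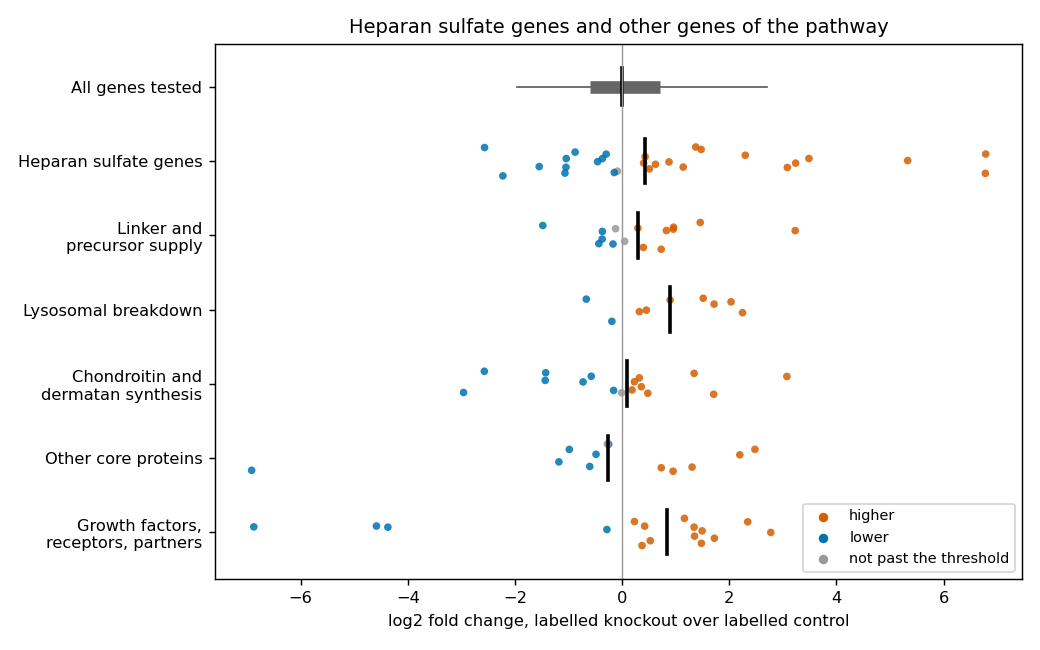
Log2 fold change, labelled knockout over labelled control, of the 27 heparan sulfate genes and of the tested genes of 5 pathway lists, one point per gene coloured by its edgeR call, with the median as a black bar; the top row gives the 5th, 25th, 50th, 75th and 95th percentiles of all 12929 genes. All genes spread from -1.96 to 2.71 between the 5th and 95th percentiles, the point near the left edge among other core proteins is BGN, with 0 counts in the knockout-labelled and 47 in the control-labelled libraries, and the lysosomal list has a median of 0.90.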

How the data were processed

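Per the labels' protocols, a kit for mRNA turned TRIzol-extracted total RNA into the sequencing libraries. Tools listed by the submitters' processing notes are HISAT2 2.2.1.0, Trimmomatic 0.36 and FastQC 0.11.5, and the build is GRCh38; which counter, annotation or strand setting was used is not given in the sources used here. The authors deposited 2 tables for each library: raw read counts by gene symbol, as whole numbers, and FPKM, the count scaled to gene length and library size. FPKM was used for within-family shares and as an alternative scale. Gene lengths were recovered as count over FPKM and came out whole within 0.02 bases in every library for well-covered genes.

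The count test was edgeR 4.0.16 (R 4.3.3): filterByExpr, trimmed mean of M values (factors 0.989 to 1.02), glmQLFit (robust) and glmQLFTest, two-sided, adjusted over all 12929 tested genes; 0.05 was the threshold. SE is the log2 fold change over the square root of F. CPM use the same scaling. The common biological coefficient of variation was 0.0443 (0.0245 within the knockout-labelled and 0.0559 within the control-labelled group). Pairs of replicates differed beyond sampling noise, with chi-square values of 1.74 to 8.3 for each degree of freedom. Total counts set the precision; counting intervals (95%, exact) and the floor of 3 counts cover counting error only. The pipeline was tested on simulated data.

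The members and lists were chosen with earlier results of these data known. Named with the value of each library were members past the threshold by at least 2-fold with at least 1 CPM in a group; other members have means or counts, except NDST2 and HSPG2, also given by library after their values were seen. From each list up to 4 genes were named by smallest p; GUSB, FGF2, the FGF receptors and BGN were added after their values were seen. Coordinates are from RefSeq (GRCh38.p14), exon overlaps from GENCODE 29; RefSeq promoters were found for 31 of 37 members. Alternatives were other scalings and filters, DESeq2 1.42.0, limma-trend (limma 3.58.1) with log2(FPKM + 0.1) or log2(FPKM + 1), the lengths as an offset, a replicate block and leaving out each library.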

Additional observations from a re-analysis of the deposited data

How the results depend on the processing

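Of the 27 heparan sulfate genes tested, 22 kept their direction and their side of the threshold in all of the 16 alternatives that could be computed for them; HS3ST6 dropped out where 20 counts in 3 libraries were required. NDST1 reversed with the length offset (log2 fold change 0.61) and on log2(FPKM + 0.1) and log2(FPKM + 1) (0.63 and 0.60), and so did GLCE (0.28, 0.30 and 0.24); the recovered lengths enter all 3 settings. NDST2, which did not pass, had 0.000895 under upper quartile scaling, 0.0395 and 0.032 on the FPKM scales and 0.016 without control replicate 3; without control replicate 2 it passed at -0.23. HS2ST1 lost its call under upper quartile scaling, on both FPKM scales and without knockout replicate 2, and GPC2 without knockout replicate 1. The number of heparan sulfate genes was 14 to 18 higher and 8 to 12 lower over all alternatives, 18 and 11 with no low-count filter, where NDST3, GPC3 and GPC5 also passed as higher, and 15 to 16 and 10 to 12 with 1 library left out.

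Replicate numbers are shared by the labels of the groups, but same-numbered libraries did not deviate together (correlations 0.018, -0.025 and -0.0078). The labels do not say whether they share a preparation, and these correlations cannot settle it. With a replicate block 15 heparan sulfate genes were higher and 11 lower, and 5397 and 5513 of all genes. At total counts of 16018260 to 19357144, the filter set in at 0.539 CPM, and genes that reached it in fewer than 3 libraries were not tested.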

Other observations

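Several heparan sulfate genes lie close together in the genome. On the X chromosome HS6ST2, GPC4 and GPC3 follow one another, with 338733 bases between HS6ST2 and GPC4 and 120256 between GPC4 and GPC3. Their differences were unlike: HS6ST2 had a log2 fold change of 5.33 and GPC4 one of -1.55, while GPC3 had 21 counts in the knockout-labelled and 0 in the control-labelled libraries. On chromosome 13 GPC5 and GPC6 are 349292 bases apart; GPC6 had a log2 fold change of 1.48, and GPC5 had 14 counts in the knockout-labelled and 0 in the control-labelled libraries. On chromosome 17 HS3ST3A1 and HS3ST3B1 are 699152 bases apart, with 16 and 533 counts in the knockout-labelled against 8 and 52 in the control-labelled libraries.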
